A study of Mus musculus with 4 samples.

Results

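The response of mouse colonic epithelial cells to leukemia inhibitory factor (LIF) was compared between cells with and without Stat4, gene by gene. For each gene the LIF effect was taken as log2((LIF + 1)/(control + 1)) in each genotype, from values in FPKM (sequenced fragments per kilobase of transcript, scaled to the size of the library). The quantity described is the LIF effect in Stat4-/- cells minus the LIF effect in wild-type cells, so a negative value means a lower response in Stat4-/-. Genes entered when their mean over the 4 libraries reached 5 FPKM, which held for 8838 of the 17604 genes listed. No measured LIF effect entered that choice. Just inside the limit lay Coq3, at 4.98, 5.03, 5.28 and 4.71 FPKM and a difference of -0.15, and just outside lay Inpp4a, at 5.28, 4.83, 4.95 and 4.93 FPKM and a difference of 0.10.

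The cells were isolated from the colon of C57BL/6 mice, either wild type or Stat4-/-, and plated on Matrigel in medium with serum and insulin. They attached for 24 h before loose material was taken off. Cells of each genotype were left untreated or given LIF at 20 ng/ml, with 1 library for each of the 4 groups. Sets of 4 values below give wild type first, untreated and with LIF, and then Stat4-/- in that same order. The labels do not say how long LIF was given to a sample, how the Stat4 allele was made, how old the mice were, or whether a library pools animals. A difference of 2 effects from 4 single libraries leaves 0 residual degrees of freedom, so no result below has a test or a replicate error, and every statement compares these 4 libraries only.

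LIF binds LIFR together with the shared chain gp130, which activates JAK kinases and above all STAT3. STAT3 in turn switches on feedback inhibitors such as SOCS3 and acute-phase and barrier genes, and in the gut this pathway is known for its part in epithelial repair. STAT4 is best known as the transcription factor downstream of interleukin-12 in T and NK cells. Glycolysis turns glucose into pyruvate and lactate, and many of its genes are also targets of the hypoxia-inducible factor HIF, which binds DNA at sites with the core ACGTG or GCGTG.

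Stat4 was at 19.7, 20.5, 2.01 and 2.98 FPKM, low in both Stat4-/- libraries. The epithelial markers were high throughout, with Epcam at 499, 500.3, 468 and 464 FPKM. The leukocyte marker Ptprc was at 3.16, 3.74, 3.67 and 5.43 FPKM, low but highest with LIF in Stat4-/-. The B cell marker Cd79a, at 3.3, 3.87, 6.5 and 11.3 FPKM, was also highest there. Other immune genes were not. Cd3e, at 1.17, 1.53, 1.04 and 1.47 FPKM, and Fcer1g, at 5.17, 9.0, 6.07 and 8.1 FPKM, were highest with LIF in wild type. Csf1r, at 3.33, 2.95, 2.45 and 2.35 FPKM, was lowest with LIF in Stat4-/-. So was Jchain of the B and plasma cell list, at 25.63, 24.98, 4.64 and 3.5 FPKM. The Y-linked gene Ddx3y was at 5.86, 6.34, 0.05 and 0.07 FPKM, so genotype cannot be told apart from the sex of the mice. Depth, estimated from the steps between low FPKM values, was 24.1, 21.8, 22.9 and 27.4 M fragments, with M for mega. At these depths counting alone gave a median standard error of 0.10 for the difference of LIF effects (8582 genes with a transcript sequence), and the median size of the difference was 0.093. Counting errors below are this standard error, which leaves out the variation between animals and cultures.

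**Figure D1:**
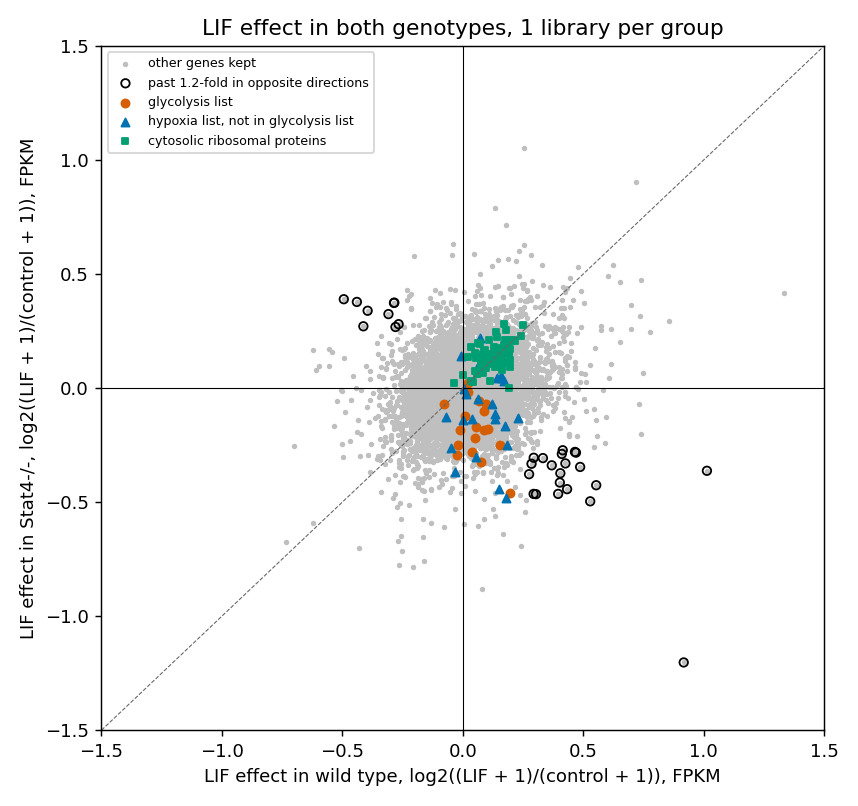
LIF effect in wild type (x axis) against LIF effect in Stat4-/- (y axis), both as log2((LIF + 1)/(control + 1)) of FPKM, for the 8838 genes kept, 3 of which lie outside the plotted range. Points below the dashed diagonal have a lower effect in Stat4-/-. Glycolysis and hypoxia genes lie mostly in the lower right quadrant, cytosolic ribosomal protein genes in the upper right, and open circles mark the 31 genes past 1.2-fold in opposite directions.

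LIF effects were small for most genes, and 7859 (88.9%) were under 1.2-fold in both genotypes. An effect of at least 1.2-fold was seen upward in 362 genes in wild type (4.10% of the 8838) and 272 in Stat4-/- (3.08%), and downward in 157 genes in wild type (1.78%) and 302 in Stat4-/- (3.42%). The median effect over all genes was 0.0072 in wild type and -0.0021 in Stat4-/-, and the median difference was -0.007. By direction and size, 265 genes were past 1.2-fold in wild type while under 1.1-fold either way in Stat4-/-, 191 of them upward (2.16%) and 74 downward (0.837%). Another 273 were past 1.2-fold in Stat4-/- while under 1.1-fold in wild type, 126 upward (1.43%) and 147 downward (1.66%). In the same direction 83 genes were past 1.2-fold in both, 56 upward (0.634%) and 27 downward (0.305%). Opposite effects past 1.2-fold were seen in 31 genes, of which 22 (0.249%) were higher with LIF in wild type and lower in Stat4-/-, and 9 (0.102%) the reverse.

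The difference itself was at least 1.5-fold in 58 genes with the lower response in Stat4-/- (0.656%) and in 25 with the higher response there (0.283%). At 2-fold the lower group held 4 genes (0.0453%), Prelid2, the pseudogene Rpl37rt and the predicted genes Gm15308 and Gm21498. The higher group held 2 (0.0226%), Defa20 and Tmem254b, whose values are uncertain because 91.9 and 100% of their 31-base words also occur in other genes of the table. Of the 302 genes left out when single genes were ranked, as predicted genes, small RNAs, pseudogenes, date-like symbols or genes with over 50% shared words, 18 were past 1.5-fold.

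To describe pathways, 71 gene lists with 1458 genes were read, of which 1105 genes were kept and 63 lists had at least 5 members kept. In 3 lists the median LIF effects had opposite signs and sizes of at least 0.05, the glycolysis list, the hypoxia list and the macrophage and dendritic cell list, all higher with LIF in wild type and lower in Stat4-/-. In 5 lists the median was at least 0.1 in size in Stat4-/- and under 0.05 in wild type, and in 3 lists the reverse. The other 52 lists met neither description.

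**Figure D2:**
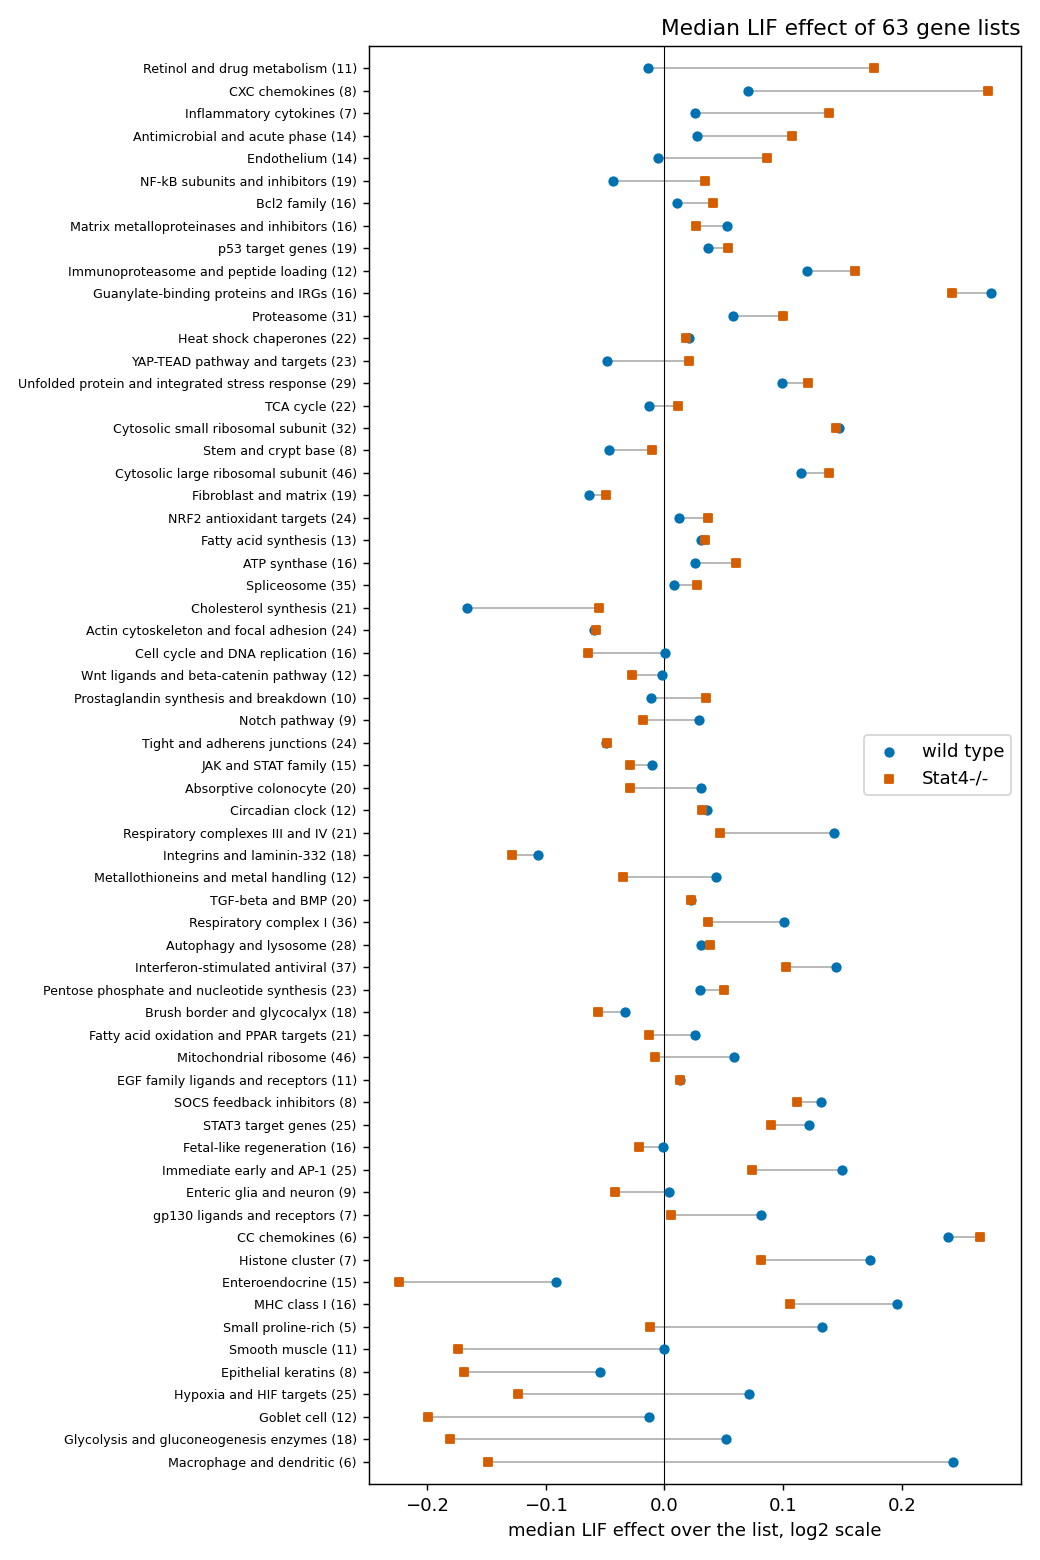
Median LIF effect on the log2 scale (x axis) in wild type (circles) and Stat4-/- (squares) for the 63 gene lists with at least 5 members kept, number of members in parentheses, ordered from the highest to the lowest median difference. The macrophage, glycolysis and goblet cell lists stand at the bottom, and the ribosomal protein lists have nearly equal medians in both genotypes.

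Glycolysis genes had LIF effects of opposite sign in the 2 genotypes, slightly above 0 in wild type and below 0 in Stat4-/-. Of 18 members kept from a list of 22, 14 were higher with LIF in wild type, where 52.1% of all genes were. In Stat4-/- 17 were lower with LIF, where 50.5% of all genes were. Both held for 13 members, against 21.1% of all genes. The median effect was 0.052 in wild type and -0.18 in Stat4-/-, and the median difference was -0.23, below 0 in 16 members against 51.9% of all genes. The larger effects lay on the Stat4-/- side, with 4 members at least 1.2-fold lower with LIF there (3.42% of all genes) and 0 past 1.2-fold in wild type (4.10% of all genes upward and 1.78% downward). The list summed to 5669.6, 5889, 6147 and 5503 FPKM, the Stat4-/- libraries being its highest and its lowest.

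Slc16a3, which encodes the lactate exporter MCT4, had the lowest difference of the list. It was at 35.7, 41, 43.8 and 31.6 FPKM, with effects of 0.20 in wild type and -0.46 in Stat4-/-, a difference of -0.66 beside a counting error of 0.095. Its highest value was the Stat4-/- control library and its lowest the Stat4-/- LIF library. Pfkl, the liver-type phosphofructokinase at the committed step of glycolysis, was at 43.1, 48.1, 54.7 and 45.8 FPKM, a difference of -0.41 (counting error 0.10). Tpi1, the triosephosphate isomerase, was at 308, 324, 344 and 274 FPKM, a difference of -0.40 (counting error 0.039). Both were highest in the Stat4-/- control library, while Pfkl was lowest in the wild-type control and Tpi1 in Stat4-/- with LIF. Pgam1, a phosphoglycerate mutase, was at 174, 188, 199 and 175 FPKM, a difference of -0.28. The hexokinase gene Hk1 was at 43.7, 46.5, 45 and 39.4 FPKM, a difference of -0.27. Eno2, the neuronal-type enolase, was at 10.2, 10.5, 9.19 and 7.39 FPKM, a difference of -0.32. In the last pair the wild-type LIF library was the highest and the Stat4-/- LIF library the lowest.

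Abundant enzymes had differences of the same sign. Ldha, a lactate dehydrogenase subunit, was at 652, 675, 667 and 574 FPKM, a difference of -0.27. Gapdh was at 1554, 1653, 1734 and 1619.6 FPKM, a difference of -0.19. For Ldha the Stat4-/- LIF library stood below the other 3, and for Gapdh the wild-type control was the lowest. The 2 members above 0 were barely so. Hk2, the inducible hexokinase, was at 41.5, 39.3, 45.5 and 43.2 FPKM, lower with LIF in both genotypes (difference 0.0078). Pfkfb4, a kinase that makes an activator of phosphofructokinase, was at 6.38, 6.49, 4.84 and 4.93 FPKM, level in each genotype (difference 0.0007).

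The Stat4-/- control library was the highest of the 4 for 13 of 18 glycolysis members, against 20.6% of all genes. The Stat4-/- LIF library was the lowest for 8 members, against 30.2% of all genes, and 5 members met both, against 4.94%. With 1 library per group, a lower response to LIF in Stat4-/- and a high value of that 1 control library cannot be told apart. In bulk RNA, fewer cells of a type and less RNA per cell cannot be told apart either.

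Hypoxia genes had the same signs with a smaller median difference. Of 25 members kept from 28, 20 were higher with LIF in wild type (median 0.071), where 52.1% of all genes were. In Stat4-/- 18 were lower with LIF (median -0.12), where 50.5% of all genes were. Both held for 14 members, against 21.1% of all genes. A difference below 0 was seen in 22 (median -0.14), against 51.9% of all genes. Ak4, a mitochondrial adenylate kinase, was at 8.96, 10.3, 11.6 and 7.99 FPKM, a difference of -0.66 (counting error 0.19). Bnip3, a mitochondrial protein that promotes mitophagy, was at 26.4, 29.5, 31.4 and 22.8 FPKM, a difference of -0.59 (counting error 0.16). For both genes the Stat4-/- libraries were the highest and the lowest, and the wild-type libraries lay between them. Mxi1, a MYC antagonist, was at 5.91, 6.85, 5.5 and 4.46 FPKM, a difference of -0.44. Bnip3l, a relative of Bnip3, was at 30.7, 34.8, 29.6 and 26.3 FPKM, a difference of -0.34. Fam162a, a hypoxia-induced mitochondrial gene, was at 96.5, 113, 102 and 93.1 FPKM, a difference of -0.36. In these 3 the wild-type LIF library was the highest and the Stat4-/- LIF library the lowest. Ankrd37, a further HIF target, was at 15.8, 16.4, 20.3 and 16.2 FPKM, a difference of -0.36, with the Stat4-/- control library alone above the other 3.

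The genes of the HIF factors themselves lay on the other side. Hif1a was at 101, 101, 97.9 and 108 FPKM, a difference of 0.15. Epas1, which encodes HIF-2 alpha, was at 17.8, 18.6, 18.9 and 20.2 FPKM, a difference of 0.029. Adm, which encodes the vasodilator peptide adrenomedullin and is itself a HIF target, was at 70.8, 74.5, 77.4 and 90.2 FPKM, a difference of 0.15. All 3 were highest with LIF in Stat4-/-, and they were the only members above 0. The glycolysis and hypoxia lists share Slc2a1. With it counted once they held 42 members, 37 of them below 0 (median difference -0.19), beside 51.9% of all genes.

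**Figure D3:**
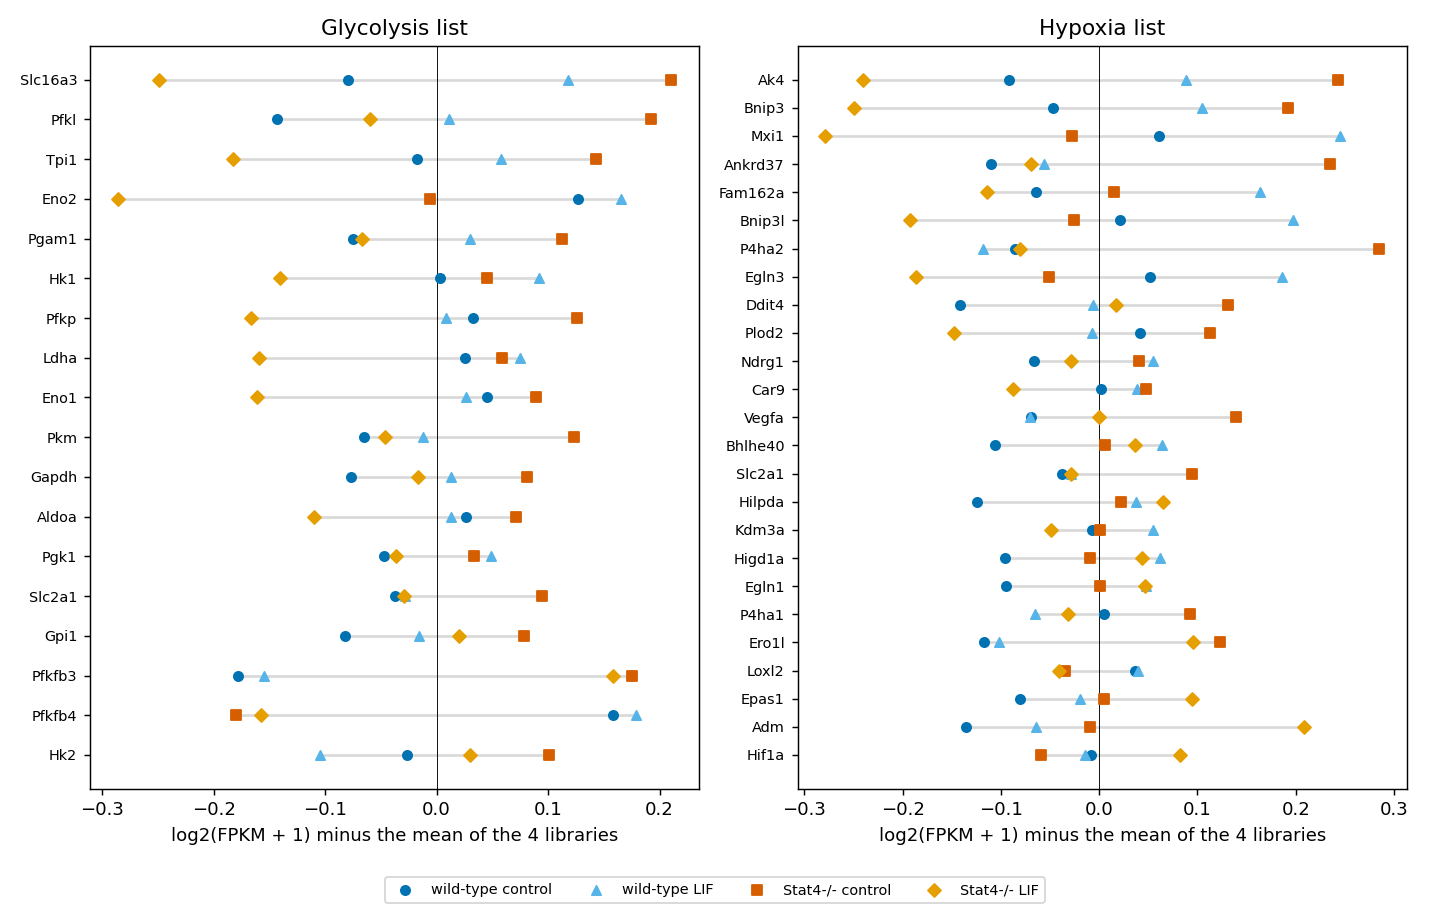
Values of the 18 glycolysis and 25 hypoxia genes kept (Slc2a1 in both panels), as log2(FPKM + 1) minus each gene's mean over the 4 libraries (x axis), ordered from the lowest difference of LIF effects at the top. The Stat4-/- control library (squares) is furthest right for 13 glycolysis and 11 hypoxia genes and the Stat4-/- LIF library (diamonds) furthest left for 8 and 10, while toward the bottom, as for Adm and Hif1a, the order differs.

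Since members of these lists differed in the same direction, the promoters of the 2 members with the lowest difference in each list are shown. They are RefSeq windows on GRCm38.p6, from 250 bases before to 50 bases after the transcript start, 5′ to 3′ on the gene's strand, with ACGTG, 1 of the 2 forms of the HIF core, on either strand in capitals. Slc16a3 lies at chr11:120948817-120949116, plus strand, Pfkl at chr10:78009758-78010057, minus strand, Ak4 at chr4:101419039-101419338, plus strand and Bnip3 at chr7:138909457-138909756, minus strand.
Slc16a3: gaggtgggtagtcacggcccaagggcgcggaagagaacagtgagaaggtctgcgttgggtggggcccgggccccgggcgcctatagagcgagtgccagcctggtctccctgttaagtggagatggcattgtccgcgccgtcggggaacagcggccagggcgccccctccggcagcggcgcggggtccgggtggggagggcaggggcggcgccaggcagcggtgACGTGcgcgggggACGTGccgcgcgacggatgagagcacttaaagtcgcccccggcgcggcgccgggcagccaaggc
Pfkl: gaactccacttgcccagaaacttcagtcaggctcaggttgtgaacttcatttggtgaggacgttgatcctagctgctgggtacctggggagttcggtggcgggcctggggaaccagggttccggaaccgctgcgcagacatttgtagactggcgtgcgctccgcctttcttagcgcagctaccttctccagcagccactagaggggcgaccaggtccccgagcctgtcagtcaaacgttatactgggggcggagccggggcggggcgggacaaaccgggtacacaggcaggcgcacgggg
Ak4: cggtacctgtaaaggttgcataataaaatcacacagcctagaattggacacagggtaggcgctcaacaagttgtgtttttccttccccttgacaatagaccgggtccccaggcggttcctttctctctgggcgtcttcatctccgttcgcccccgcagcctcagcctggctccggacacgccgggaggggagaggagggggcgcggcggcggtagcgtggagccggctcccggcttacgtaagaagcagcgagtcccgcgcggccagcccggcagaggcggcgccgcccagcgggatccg
Bnip3: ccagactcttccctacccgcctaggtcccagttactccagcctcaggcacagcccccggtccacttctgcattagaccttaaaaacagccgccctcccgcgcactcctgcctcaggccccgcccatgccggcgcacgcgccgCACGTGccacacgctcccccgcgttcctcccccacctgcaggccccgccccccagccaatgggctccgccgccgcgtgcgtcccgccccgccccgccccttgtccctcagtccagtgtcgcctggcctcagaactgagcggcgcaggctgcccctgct
ACGTG was found 2 times in the Slc16a3 window, on the printed strand. In the Bnip3 window it was found 2 times at 1 place, since CACGTG holds the motif on both strands with overlap, and in the Pfkl and Ak4 windows 0 times. The other form, GCGTG on either strand, not in capitals, was found 0 times in the Slc16a3 window, 1 time in Pfkl, 2 times in Ak4 and 3 times in Bnip3. ACGTG was found in 8 of 18 glycolysis windows (44.4%) and 12 of 18 hypoxia windows (66.7%, 18 of the 25 members matched), beside 1868 of 6860 windows of the genes kept (27.2%) and 5315 of all 27025 windows (19.7%). GCGTG was found in 8 of 18 glycolysis windows (44.4%), 13 of 18 hypoxia windows (72.2%), 3699 windows of the genes kept (53.9%) and 8772 of all windows (32.5%). Either form was found in 12 glycolysis windows (66.7%) and 16 hypoxia windows (88.9%), beside 4504 windows of the genes kept (65.7%) and 11836 of all windows (43.8%). For glycolysis the share with either form was thus close to that of all genes kept. Many hypoxia list members were put on such lists because HIF binds them, and a match is a description of letters, not a site.

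Macrophage and dendritic cell genes made up the third list with opposite medians, on few genes. Of 18 members 6 reached a mean of 5 FPKM and 4 were under 1, with a median effect of 0.24 in wild type and -0.15 in Stat4-/- and a median difference of -0.30. Tyrobp, the signalling adaptor of myeloid receptors, was at 6.01, 8.68, 5.92 and 4.7 FPKM, a difference of -0.75 (counting error 0.27). Cd68, a lysosomal glycoprotein of macrophages, was at 22.9, 26.9, 27.1 and 23.4 FPKM, a difference of -0.43. Cd14, the lipopolysaccharide co-receptor gene, was at 52.8, 63.6, 71.3 and 71.2 FPKM, a difference of -0.27. Each was higher with LIF in wild type, while in Stat4-/- Tyrobp and Cd68 were lower and Cd14 was level. Fcer1g was higher with LIF in both genotypes, at 5.17, 9.0, 6.07 and 8.1 FPKM, a difference of -0.33. Mrc1 was lower in both, at 16.6, 14.9, 10.9 and 10.2 FPKM, a difference of 0.049. Lyz2, the lysozyme gene of myeloid cells, was lower with LIF in both genotypes, at 14.1, 10.2, 13.5 and 10.8 FPKM, a difference of 0.13. The list summed to 143, 159.6, 156 and 149 FPKM, and with every listed gene included its median difference was -0.10. Of the T and NK cell list only 2 genes were kept, and their part in these values was not tested.

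Goblet cell genes, which serve the mucus layer, had a median LIF effect below 0 in Stat4-/- and near 0 in wild type. Of 12 members kept from 20, 8 were lower with LIF in Stat4-/- (50.5% of all genes) and 7 in wild type (47.7%). The genotypes parted more in size, with 5 members at least 1.2-fold lower in Stat4-/- (3.42% of all genes) and 0 in wild type (1.78%). The median effect was -0.013 in wild type and -0.20 in Stat4-/-. The median difference was -0.17, below 0 in 9 members against 51.9% of all genes. Zg16, a lectin-like mucus protein that binds bacteria, was at 254, 296, 176 and 150.3 FPKM, with effects of 0.22 in wild type and -0.23 in Stat4-/-, a difference of -0.45 (counting error 0.050). Clca1, a protease that processes mucus, was at 104, 94.5, 69.2 and 50.6 FPKM, a difference of -0.31. Fcgbp, a large mucus component, was at 33, 32.1, 24.4 and 18.9 FPKM, a difference of -0.31. For these 3 genes the Stat4-/- LIF library was the lowest, and both Stat4-/- libraries were below both wild-type libraries.

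Tff3, the trefoil peptide of goblet cells, was at 381, 350.0, 268 and 215 FPKM, a difference of -0.20. Agr2, an endoplasmic reticulum protein needed for mucin assembly, was at 25.8, 33, 21.5 and 21.7 FPKM, a difference of -0.33, higher with LIF in wild type and level in Stat4-/-. Rep15 had the lowest difference of the list, -0.96 (counting error 0.16), at 7.62, 8.1, 5.74 and 2.66 FPKM. The gel-forming mucin gene Muc2 was lower with LIF in both genotypes, at 81, 68, 48.9 and 39.6 FPKM, a difference of -0.050. The genotypes thus differed more in level than in LIF effect for Muc2. The list summed to 1502, 1495, 1122 and 1013 FPKM. The Stat4-/- LIF library was the lowest of the 4 for 8 members, against 30.2% of all genes.

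Enteroendocrine genes leaned the same way, but with a median below 0 in both genotypes. Of 15 members, 13 were lower with LIF in Stat4-/- (median -0.22), where 50.5% of all genes were. In wild type 9 were lower (median -0.091), where 47.7% of all genes were. A difference below 0 was seen in 12, against 51.9% of all genes. Pyy, the satiety hormone of colonic L cells, was at 41.2, 45.3, 41.3 and 27.7 FPKM, a difference of -0.69 (counting error 0.13). Insl5, another L-cell hormone, was at 10.5, 9.22, 11.6 and 7.0 FPKM, a difference of -0.49. In both the Stat4-/- LIF library stood below the other 3. The somatostatin gene Sst was at 49.1, 61.3, 46.6 and 46.6 FPKM, a difference of -0.32, with the wild-type LIF library above the other 3. The proglucagon gene Gcg was lower with LIF in both genotypes alike, at 26.2, 16.7, 23.2 and 15.1 FPKM, a difference of 0.029. Scg5, which encodes a chaperone of a prohormone convertase, went against the list at 8.33, 7.76, 6.34 and 8.19 FPKM, a difference of 0.42.

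All 8 epithelial keratin genes kept had a difference below 0, against 51.9% of all genes, with medians of -0.054 in wild type and -0.17 in Stat4-/-. Krt20, a keratin of mature surface cells, was at 416, 410.5, 351 and 311 FPKM, a difference of -0.15. Krt19 was at 2430.3, 2328, 2137 and 1906 FPKM, a difference of -0.10. Krt80 was at 16.7, 14.6, 12.7 and 9.9 FPKM, a difference of -0.14. In these 3 the Stat4-/- LIF library was the lowest and the wild-type control the highest. Krt6a, a keratin of stressed epithelium, had the lowest difference, -0.37, at 22.1, 27.8, 29.2 and 28.1 FPKM, but shares 50.1% of its 31-base words with other listed genes. Among fetal-like regeneration genes, 14 of 16 had a difference below 0, again beside 51.9% of all genes, at a median of -0.042. Clu, which encodes the secreted chaperone clusterin, was lower with LIF in both genotypes and further in Stat4-/-, at 169, 140.3, 170.1 and 99.1 FPKM, a difference of -0.51 (counting error 0.055).

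Smooth muscle genes, which mark another cell type, also had a lower median with LIF in Stat4-/- and a median close to 0 in wild type. Of 11 members 9 were lower with LIF there (median -0.17) and 6 in wild type (median -0.0004), against 50.5 and 47.7% of all genes. Des, the muscle intermediate filament, was at 11.7, 11.7, 24.7 and 16 FPKM, a difference of -0.60 (counting error 0.16). The calponin gene Cnn1 was at 10.5, 13.1, 31.3 and 26.5 FPKM, a difference of -0.52. Ppp1r14a, an inhibitor of myosin phosphatase, was at 4.19, 5.13, 9.28 and 5.37 FPKM, a difference of -0.93. In these 3 the Stat4-/- control library was the highest, as it was for 8 of 11 members, against 20.6% of all genes. Acta2, the smooth muscle actin also used by myofibroblasts, was at 41.6, 35.2, 32.6 and 29.3 FPKM, a difference of 0.083. The median difference was -0.10, but 0.049 over the members with a mean of at least 20 FPKM, so its sign depends on the less abundant members. Their part in the epithelial values was not tested.

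CXC chemokine genes leaned to a higher response in Stat4-/-. Of 8 genes, 7 were higher with LIF in Stat4-/- (median 0.27), where 49.3% of all genes were, and 6 in wild type (median 0.070). A difference above 0 was seen in 6 (median 0.11), against 48.1% of all genes. Cxcl10, the interferon-induced attractant of T cells, was at 11, 10.6, 29.2 and 38.2 FPKM, with effects of -0.050 in wild type and 0.38 in Stat4-/-, a difference of 0.43 (counting error 0.12). Cxcl3, a neutrophil attractant, was at 33, 33.1, 42.3 and 50.6 FPKM, a difference of 0.25. Cxcl12, a stromal chemokine, was at 58.3, 58.9, 50.1 and 61.6 FPKM, a difference of 0.28. Each was nearly level in wild type and highest with LIF in Stat4-/-. The neutrophil attractants Cxcl1 and Cxcl2 were higher with LIF in both genotypes. Cxcl1 was at 249, 294, 358 and 469 FPKM, a difference of 0.15. Cxcl2 was at 111, 147, 173 and 214 FPKM, a difference of -0.091.

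The CC chemokine list had like medians, with 6 of 6 members higher with LIF in both genotypes. Its exception in size was Ccl11, the eosinophil attractant eotaxin, at 20.0, 20.7, 19.4 and 29.6 FPKM, a difference of 0.54 (counting error 0.12). The Stat4-/- LIF library stood above the other 3, which lay close together. The inflammatory cytokine list had medians of 0.026 in wild type and 0.14 in Stat4-/- over 7 members, 5 of them with a difference above 0. The macrophage growth factor gene Csf1 was at 44, 40.4, 55.4 and 60.7 FPKM, a difference of 0.25. Casp1, the inflammasome protease, was at 17.6, 16.5, 15.6 and 16.9 FPKM, a difference of 0.21. Both were lower with LIF in wild type and higher in Stat4-/-. Csf3, the granulocyte growth factor gene, was higher with LIF in both, at 5.82, 8.58, 11.1 and 15.2 FPKM, a difference of -0.066. Over the members with a mean of at least 1 FPKM the median difference of 0.11 became 0.026.

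The antimicrobial and acute-phase list had medians of 0.027 in wild type and 0.11 in Stat4-/- over 14 members, with members on both sides. Reg3b, a bactericidal lectin gene, was at 76.7, 72.4, 67.3 and 73.6 FPKM, a difference of 0.21. Its relative Reg3g was at 32.3, 31.6, 30.3 and 33.5 FPKM, a difference of 0.17. Both were slightly lower with LIF in wild type and higher in Stat4-/-. Saa1, a serum amyloid gene, was at 57.8, 68.6, 34 and 31.7 FPKM, a difference of -0.34, and shares 46.8% of its words with other listed genes. Duoxa2, which matures the oxidase DUOX2, was at 31.1, 36.5, 41.8 and 38.2 FPKM, a difference of -0.35. These 2 were higher with LIF in wild type and lower in Stat4-/-. The median difference of 0.074 became -0.031 over the members with a mean of at least 20 FPKM.

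Retinol and drug metabolism genes were higher with LIF in Stat4-/- alone by their medians, -0.014 in wild type and 0.18 in Stat4-/- over 11 of 23 members. Among them were genes tied to the aryl hydrocarbon receptor, a sensor of foreign and dietary compounds. The receptor gene Ahr was at 13.1, 13.7, 11.3 and 13.9 FPKM, a difference of 0.21. Its classic target Cyp1a1 was at 13.7, 15.1, 13.5 and 17.5 FPKM, a difference of 0.22. Tiparp, which encodes a feedback inhibitor of the receptor, was at 28.8, 28.2, 26.2 and 32.5 FPKM, a difference of 0.33 (counting error 0.12). In each the Stat4-/- LIF library was the highest of the 4. The alcohol dehydrogenase gene Adh1, which can oxidise retinol, was higher with LIF in wild type and lower in Stat4-/-, at 17.1, 21.3, 18.2 and 15.3 FPKM, a difference of -0.54. With every listed gene included the median difference of 0.14 became 0.029.

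Genes of respiratory complexes I, III and IV had median LIF effects further above 0 in wild type than in Stat4-/-. The complex I list summed to 1809, 1963, 1881 and 1998 FPKM. The list of complexes III and IV summed to 2863, 3131, 3122 and 3313 FPKM. Both sums were higher with LIF in both genotypes and highest with LIF in Stat4-/-. Of 36 complex I subunits, 28 were higher with LIF in wild type (median 0.10) and 27 in Stat4-/- (median 0.037). Of 21 subunits of complexes III and IV, 20 were higher in wild type (median 0.14) and 16 in Stat4-/- (median 0.047). Over all genes 52.1% were higher in wild type and 49.3% in Stat4-/-. The median differences were small, -0.031 with 22 of 36 below 0 and -0.021 with 13 of 21 below 0, against 51.9% of all genes. The ATP synthase list, of the same pathway, had medians of 0.026 in wild type and 0.060 in Stat4-/-. Its median difference of 0.0055 was close to 0, with 9 of 16 members above 0 against 48.1% of all genes. Ndufv3 of complex I was at 31.6, 42.2, 35 and 30.8 FPKM, a difference of -0.58 (counting error 0.12). Ndufs4 of the same complex was at 28.9, 25.8, 22.4 and 28 FPKM, a difference of 0.46 (counting error 0.13). Subunits of 1 complex thus lay far out on both sides. Uqcrh of complex III was at 114, 130.4, 139 and 129 FPKM, a difference of -0.30. Uqcrb of complex III was at 139, 147, 126 and 155 FPKM, a difference of 0.21.

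The TCA cycle list had medians of -0.013 in wild type and 0.012 in Stat4-/-, close to those of all genes. The mitochondrial ribosome list had 28 of 46 members higher with LIF in wild type (median 0.059) and 22 in Stat4-/- (median -0.0079). Its members past 1.2-fold in the difference were 8 with the lower response in Stat4-/- (7.02% of all genes) and 1 with the higher (3.82%). Mrpl55 had the lowest difference of the list, -0.86 (counting error 0.22), at 6.03, 8.25, 9.8 and 6.83 FPKM. Mrpl54 was at 43.8, 52.6, 55.8 and 49.4 FPKM, a difference of -0.43. Both were higher with LIF in wild type and lower in Stat4-/-, with the Stat4-/- control library the highest.

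The small proline-rich list, the third with a median of at least 0.1 in wild type alone (0.13, against -0.012 in Stat4-/-), rests on 5 genes. Of these 0 were past 1.2-fold in wild type (4.10% of all genes upward, 1.78% downward). In Stat4-/- 1 was, Sprr2b, upward (3.08% of all genes). The wild-type median was the effect of Sprr2b itself, whose effect in Stat4-/- was 0.79. Sprr2a3, which encodes a structural protein of stressed epithelium, was at 1714, 1781, 1276 and 1092 FPKM, a difference of -0.28, but shares 73.4% of its words with other listed genes. Sprr2a1, at 178, 199, 129 and 121 FPKM, a difference of -0.26, shares 96.9%. Sprr2b, with 31.6% shared, lay on the opposite side at 6.99, 7.76, 7.38 and 13.5 FPKM, a difference of 0.66, with the Stat4-/- LIF library above the other 3.

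Several lists had like medians in both genotypes. Large ribosomal subunit genes were higher with LIF in 46 of 46 in wild type and 46 in Stat4-/- (medians 0.11 and 0.14, median difference 0.014). Small subunit genes were higher in 31 of 32 in wild type and 32 in Stat4-/- (medians 0.15 and 0.14, median difference 0.021). Guanylate-binding proteins and immunity-related GTPases, which act against intracellular microbes, had 14 and 16 of 16 members higher (medians 0.27 and 0.24). Interferon-stimulated antiviral genes had 33 and 31 of 37 higher (medians 0.14 and 0.10).

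Single interferon-related genes lay apart from their lists. Isg20, an antiviral exonuclease, was at 30.2, 44, 48.8 and 52.5 FPKM, a difference of -0.43 (counting error 0.097). H2-Q7, an MHC class I gene with 33.4% shared words, was at 13.3, 23.6, 37.6 and 44.8 FPKM, a difference of -0.53. Both had the wild-type control as the lowest library and a smaller step with LIF in Stat4-/-, from a higher control. The MHC class I list had medians of 0.20 in wild type and 0.11 in Stat4-/-. Oas1g, at 17.8, 20.9, 0.08 and 0.09 FPKM, was near 0 in Stat4-/-, so its difference of -0.21 holds the wild-type effect alone, and it shares 55.1% of its words with other listed genes.

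The lists for the pathway that LIF itself uses had small median differences. They were -0.052 for gp130 ligands and receptors, -0.017 for the JAK and STAT family and -0.037 for SOCS genes. Single members lay further out, with differences of -0.32 for Jak3, -0.26 for Cish and 0.22 for Socs4 (counting errors 0.10, 0.12 and 0.070). Socs3, the feedback inhibitor of gp130, was at 28.7, 36.2, 38 and 43.8 FPKM, with effects of 0.33 in wild type and 0.20 in Stat4-/-. Its difference was -0.12, beside a counting error of 0.14 that rests on a median transcript length of 490 bases. Stat3 was at 55.9, 61.2, 66.1 and 65.6 FPKM, a difference of -0.14 (counting error 0.085). Lif was at 41.8, 45.4, 63.8 and 63.6 FPKM, a difference of -0.12 (counting error 0.041). The last pair was slightly higher with LIF in wild type and level in Stat4-/-, where the control was already higher. The gp130 gene itself, Il6st, stood at 62.2, 61.9, 68.7 and 69 FPKM, a difference of 0.015. The SOCS list had medians of 0.13 and 0.11 over 8 genes. The list of STAT3 targets had 0.12 and 0.089 over 25, and immediate early genes had 0.15 and 0.074 over 25.

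Within the STAT3 targets, Muc1, a membrane mucin, was at 7.98, 8.99, 7.89 and 6.46 FPKM, a difference of -0.41 (counting error 0.26). Lcn2, the iron-scavenging lipocalin, was at 10.5, 14.9, 13.6 and 16.3 FPKM, a difference of -0.23. Muc1 had effects of opposite sign, whereas Lcn2 was higher with LIF in both genotypes. Junb, an AP-1 subunit, was higher with LIF in both, at 197, 233, 244 and 257 FPKM, a difference of -0.17 (counting error 0.036). Id2, a TGF-beta and BMP target that inhibits differentiation factors, was at 21.7, 29.5, 25 and 24.7 FPKM, a difference of -0.44, higher with LIF in wild type and level in Stat4-/-.

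Cholesterol synthesis genes were lower with LIF in 17 of 21 in wild type (median -0.17) and 16 in Stat4-/- (median -0.055). The members' differences had a median of 0.0047, with 12 above and 9 below 0. Idi1, an isomerase of the pathway, was at 14.4, 11.8, 9.23 and 9.58 FPKM, a difference of 0.32. Cyp51, the lanosterol demethylase, was at 13.3, 11, 8.54 and 6.18 FPKM, a difference of -0.15. Idi1 was lower with LIF in wild type alone, Cyp51 in both.

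Of the 15 genes with the lowest differences, 7 had effects past 1.2-fold in opposite directions, beside 0.249% of all genes with wild type higher. Ranking by the difference itself favours such genes, so the count is no separate result. It also favours high values of the wild-type LIF and Stat4-/- control libraries. Prelid2, of a family of mitochondrial lipid-transfer proteins, was at 12.6, 18.6, 13.5 and 9.3 FPKM, with effects of 0.53 in wild type and -0.50 in Stat4-/-, a difference of -1.03 (counting error 0.19). Npy, the neuropeptide Y gene used by enteric neurons, was at 5.71, 8.85, 11.1 and 8.03 FPKM, a difference of -0.98 (counting error 0.25). In the first the wild-type LIF library stood above the others, and in the second the Stat4-/- control library did. Ift43, a subunit of the ciliary transport complex, was at 17.2, 23.5, 22.4 and 16.2 FPKM, a difference of -0.88 (counting error 0.14). Phpt1, a phosphohistidine phosphatase just outside these 15 but also with effects in opposite directions, was at 10.8, 13.5, 13.5 and 9.52 FPKM, a difference of -0.76 (counting error 0.18). In both, wild-type LIF and Stat4-/- control were the upper pair. Ckb, the brain-type creatine kinase, was at 9.09, 12.4, 13.5 and 10.2 FPKM, a difference of -0.78. Cd52, a leukocyte surface glycoprotein, was higher with LIF in both genotypes, at 4.59, 13.1, 12.7 and 17.2 FPKM, a difference of -0.92, with the wild-type control far below the other 3.

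Among the highest differences, Ggact, a gamma-glutamylamine cyclotransferase, was at 8.21, 5.54, 6.16 and 8.38 FPKM, a difference of 0.88 (counting error 0.23). Tram2, a membrane protein of the translocon, was at 7.68, 5.4, 4.38 and 5.99 FPKM, a difference of 0.82 (counting error 0.11). Both were lower with LIF in wild type and higher in Stat4-/-, and their wild-type control and Stat4-/- LIF values were the upper pair. A ranking by high differences favours that pair. Immp1l, a subunit of the mitochondrial inner membrane peptidase, was at 19.4, 14.3, 13.7 and 16.7 FPKM, a difference of 0.68 (counting error 0.14). Dtymk, the thymidylate kinase, lay further in among the genes of opposite sign, at 28.6, 23.6, 24 and 29.3 FPKM, a difference of 0.55 (counting error 0.11). These also had the same upper pair. Bik, a pro-apoptotic BCL2 family member, was at 8.78, 5.46, 5.62 and 6.09 FPKM, a difference of 0.70. Vkorc1, the vitamin K epoxide reductase, was at 8.87, 5.71, 6.71 and 7.68 FPKM, a difference of 0.73. Rpa2, a subunit of the single-strand DNA binding complex, was at 6.18, 5.24, 4.85 and 7.75 FPKM, a difference of 0.78 (counting error 0.27). For Bik and Vkorc1 the wild-type control was the highest, for Rpa2 the Stat4-/- LIF library.

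The 15 highest-ranked genes had mean values of 5.36 to 16.0 FPKM and the 15 lowest of 5.99 to 19.8 FPKM. Their median transcript lengths were 796 and 852.5 bases, against 1288.5 for all genes kept. Both ends thus held short transcripts with values near the limit of 5 FPKM. The part of length and low level in these differences was not tested.

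**Figure D4:**
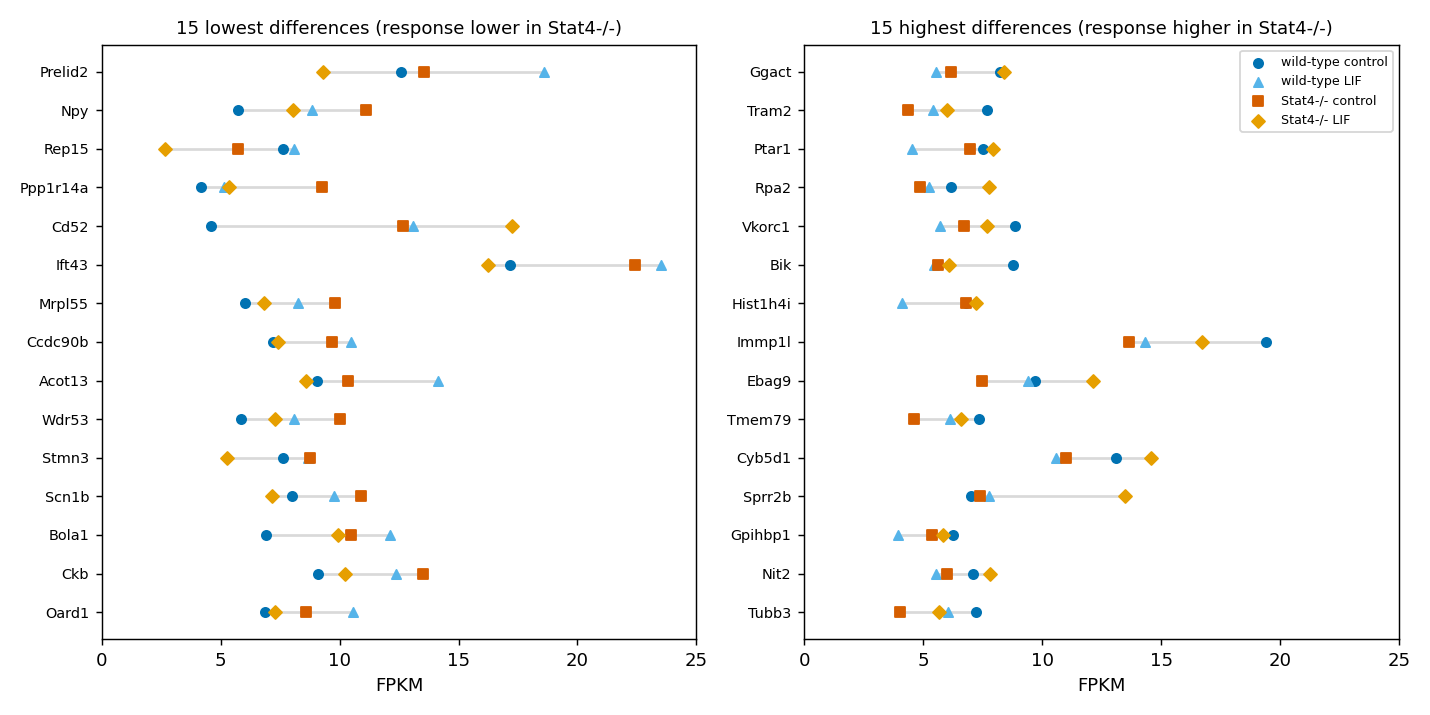
FPKM in the 4 libraries (x axis) for the 15 genes with the lowest and the 15 with the highest difference of LIF effects, single libraries with no error bar, markers hidden where values coincide. On the left, triangles (wild-type LIF) and squares (Stat4-/- control) are mostly the upper pair, and on the right circles (wild-type control) and diamonds (Stat4-/- LIF). Ranking by the difference itself favours these pairs.

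The differences also followed the base composition of the transcripts, a trend found after the values were seen. Over 5 equal groups of genes by GC content, the median difference was 0.041 in the lowest group (33.2 to 45.3% GC), then 0.011, -0.015 and -0.028, and -0.051 in the highest group (56 to 68.4% GC). The LIF effects ran against each other. Median effects in the lowest and the highest group were -0.012 and 0.032 in wild type, and 0.030 and -0.023 in Stat4-/-. With the trend taken out in 20 bins, the glycolysis list went from a median difference of -0.23 to -0.20. The hypoxia list went from -0.14 to -0.12 and the goblet cell list from -0.17 to -0.14. The retinol and drug metabolism list went from 0.14 to 0.096. These 4 lists kept their sign and most of their size. The epithelial keratin list went from -0.12 to -0.093, and the complex III and IV list from -0.021 to -0.0029.

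**Figure D5:**
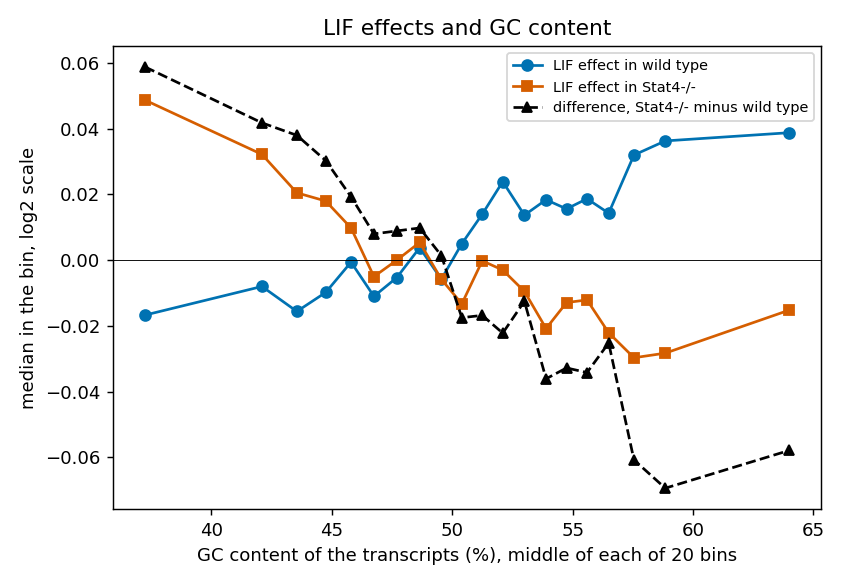
Median LIF effect in wild type (circles), in Stat4-/- (squares) and their difference (triangles, dashed), on the log2 scale (y axis), in 20 bins of transcript GC content (x axis, percent). The wild-type line goes up and the Stat4-/- line goes down with GC content, and the difference falls from 0.059 in the first bin to -0.058 in the last.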

How the data were processed

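Libraries were made from total RNA with the TruSeq RNA kit, per the labels' protocols, and the submitters' processing notes name Bowtie2, HISAT and the mm10 build without versions. The deposited values are FPKM, 1 column for each of the 4 groups, although the design text speaks of duplicates, and 0 value columns were left unused. Here LIF effects and their difference were computed on log2(FPKM + 1) for genes whose mean reached 5 FPKM, a scale that understates the change of low genes. Gene symbols were matched to GENCODE M21 transcripts (8567 genes kept matched once) for length, GC content and shared 31-base words.

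Depth was estimated in each library from 95 to 110 low genes, of whose values 65.5 to 79.8% lay within 0.15 fragments of a whole number, at the depth chosen for that closeness. Counting errors rest on it and on the median length of each gene's annotated transcripts, and cover counting only. They are too large where the transcripts in use are longer than that median, and too small where they are shorter. The calculation was tested on simulated data. Python 3.11.15, numpy 2.4.6, pandas 2.3.3 and matplotlib 3.10.9 were used.

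Named genes are the 15 highest and 15 lowest differences, up to 10 in each direction of the opposite class, up to 6 members per list with the largest differences, 12 fixed genes and the cell type markers. Predicted genes, pseudogenes, date-like symbols and genes with over 50% shared words were left out of the rankings over all genes. Genes named outside this rule (such as Muc2, Gcg, Hif1a, Adm, Epas1, Hk2, Ldha, Gapdh, Acta2, Pfkfb4, Ddx3y, Coq3, Inpp4a, Defa20, Tmem254b and the predicted genes) were chosen after their values were seen. The genes, lists and thresholds were chosen with earlier results of these data known. Alternatives were a pseudocount of 0.1, other limits on low values, rescaling of the libraries, removal of genes with shared words and, added after the data were seen, a GC correction.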

Additional observations from a re-analysis of the deposited data

Results flagged for a closer look

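In 3 lists at least 2 in 3 members lay above 0 with LIF in wild type and at least 2 in 3 below 0 in Stat4-/-. Their median differences of LIF effects were -0.23 for glycolysis, -0.14 for hypoxia and -0.30 for the macrophage and dendritic list. The difference was not tested for these lists or for the genes below, since each group is 1 library.

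The named genes with effects of at least 1.2-fold in opposite directions were higher with LIF in wild type and lower in Stat4-/- in 11 cases. Their differences were -1.03 for Prelid2, -0.98 for Npy, -0.88 for Ift43, -0.86 for Mrpl55, -0.83 for Ccdc90b, -0.82 for Wdr53 and -0.78 for Ckb. They were -0.77 for Ppt2, -0.76 for Phpt1, -0.76 for Dcaf17 and -0.75 for Tyrobp.

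The reverse signs were seen in 8 cases, with differences of 0.88 for Ggact, 0.82 for Tram2, 0.68 for Immp1l, 0.66 for Cyb5d1, 0.63 for Nit2, 0.55 for Smim19 and 0.55 for Dtymk. Bcl2a1d, at 0.73, shares 89.1% of its 31-base words with other listed genes.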

How the results depend on the processing

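The counts follow the limit on low values. With no limit, a mean of at least 1 FPKM and a mean of at least 20 FPKM in place of 5, the genes at least 1.5-fold higher in the difference numbered 216, 130 and 1, and those lower 314, 200 and 7. Opposite effects with wild type higher were seen in 121, 73 and 2 genes and the reverse in 85, 50 and 1. Effects in wild type alone were seen in 910, 572 and 62 genes, in Stat4-/- alone in 933, 606 and 62, and shared effects in 288, 198 and 23. A pseudocount of 0.1 gave 132 shared genes.

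Among lists, the glycolysis, hypoxia, goblet cell and small proline-rich medians stayed within 1.5 times of their value in each alternative that gave one. The macrophage median was -0.10 with no limit and at 1 FPKM. Smooth muscle was at -0.063 in both and at 0.049 at 20 FPKM, and retinol at 0.029 with no limit. Cytokines were at 0.026 at 1 FPKM and 0.068 with the GC correction, and antimicrobial genes at 0.042 with no limit, 0.045 at 1 FPKM and -0.031 at 20 FPKM. Complex I was at -0.021 with upper-quartile scaling. Complexes III and IV were at -0.013 with median-of-ratios scaling, -0.010 with upper-quartile scaling and -0.0029 with the GC correction. The limits select the members, and the causes of the other shifts were not tested.

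Rescaling and the other alternatives moved the median difference of all genes only between -0.011 and 0.0032. Of 408 named genes 2 moved with a pseudocount of 0.1. A reversal was looked for only among named genes past 1.5-fold, and 0 were found there. Differences near 0 could change sign, as for Mrc1, at 0.049 and at -0.016 with the GC correction. No library can be left out, since each group has 1. No paired analysis was possible because each group has 1 library. Depth limits single genes, since the median size of the difference (0.093) was below the median counting error (0.10).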
